A study of Homo sapiens with 9 samples.

Results

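Target genes of the transcriptional coactivator YAP were examined in HMEC-1, an established line of human dermal microvascular endothelial cells. The 10 genes were CTGF, CYR61, NOV, ANKRD1, AMOTL1, AMOTL2, LATS2, AJUBA, AXL and CRIM1, found by their symbols among the 29740 genes of the count table, where CTGF, CYR61 and NOV are older names of CCN family genes. All 10 were among the 14740 genes that passed the filter on low counts. The set was selected on measured values, since CTGF and CYR61 were chosen by their lower counts in the 24H libraries, and the other 8 are known YAP targets, so single genes get no p-value in the comparisons that use the 24H libraries, and their values there are a description.

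The cells had been treated with 50 µM trimethylamine N-oxide (TMAO), a metabolite made from dietary precursors by gut bacteria and the liver, for 24H or 48H, and were compared with untreated controls (CTRL). RNA sequencing gave 3 libraries in each of the 3 groups, all from the same cell line. Treated cells were kept in low-serum medium during treatment, and the medium of the controls is not stated. Controls of both time-points were pooled, so a difference from CTRL includes any effect of time in culture. A difference between 48H and 24H includes it too. The comparisons with CTRL share the control libraries. The p-values printed at 48H for the genes of the set are therefore not independent of how it was chosen. Whether the 3 libraries of a group came from separate cultures is not stated, and the p-values measure only the spread between these libraries.

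YAP and its relative TAZ are coactivators that bind DNA through the TEAD factors. The Hippo kinases phosphorylate them and keep them in the cytoplasm, and cell spreading, matrix stiffness, flow and serum factors release them into the nucleus. Several target genes encode secreted matricellular proteins that act on integrins, and others encode inhibitors that feed back on YAP. In endothelium the pathway is known for its part in sprouting, junction remodelling and the response to flow.

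Total estimated counts per library ranged from 25205756 to 36927373. Genes of ribosomal RNA, of which 4 were counted, took 30.7% of TMAO 24H replicate 1 and between 0.968% and 6.73% of each other library. In TMAO 48H replicate 3, the summed level of 4 epithelial markers (EPCAM, CDH1, KRT5 and KRT14) was 8.74 CPM (counts scaled to a common library size), against 55.6 to 100 CPM in the other 8. All 13 endothelial markers, among them CDH5, PECAM1 and VWF, reached at least 1 CPM in every library, and the 4 leukocyte markers summed to at most 0.563 CPM. The summed level of 7 fibroblast markers was 959 to 1120 CPM in CTRL, 967 to 1050 CPM at 24H and 616 to 672 CPM at 48H, with COL1A1 and COL1A2 making up most of it and the defining markers DCN and LUM at or near 0 throughout. The part of these differences in the results was not tested.

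The sequence upstream of CTGF carries the best known TEAD sites of the family, and it is shown here with ANKRD1, another gene with more than 1 match, and AMOTL1, which had none. The TEAD motif searched was GGAATG, on both strands, in the 250 bases before each RefSeq start site (GRCh38.p14). Capitals mark the motif, and each stretch stops before the first base that the GENCODE annotation marks as untranslated region. The CTGF stretch is chr6:131951374-131951622 (minus strand), the ANKRD1 stretch is chr10:90921277-90921337 (minus strand) and the AMOTL1 stretch is chr11:94768106-94768341 (plus strand). The AMOTL1 stretch lies before an internal start site, within the gene as GENCODE annotates it (94706431 to 94876753).
CTGF: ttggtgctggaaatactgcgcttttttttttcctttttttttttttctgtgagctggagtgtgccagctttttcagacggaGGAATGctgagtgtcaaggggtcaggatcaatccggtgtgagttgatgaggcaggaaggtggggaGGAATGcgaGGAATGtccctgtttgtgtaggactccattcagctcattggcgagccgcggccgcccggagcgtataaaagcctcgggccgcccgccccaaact
ANKRD1: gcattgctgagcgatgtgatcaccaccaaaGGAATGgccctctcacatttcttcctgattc
AMOTL1: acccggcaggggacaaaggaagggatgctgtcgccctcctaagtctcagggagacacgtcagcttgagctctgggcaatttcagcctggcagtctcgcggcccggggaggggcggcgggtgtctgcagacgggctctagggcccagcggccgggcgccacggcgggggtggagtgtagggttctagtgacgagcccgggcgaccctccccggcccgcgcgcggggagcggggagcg

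Promoters of 7 of the 10 genes were taken from RefSeq, with 10 start sites between them, and CYR61, CRIM1 and NOV are not among the 7. CTGF had 3 matches, beginning at -169, -104 and -95 bases from the start site, and ANKRD1 had 2, at -220 and -128. Among 35116 promoters of the same length, 11.9% held at least 1 match, 0.94% at least 2 and 0.0826% at least 3. AMOTL2 (-69), AJUBA (-59) and AXL (-212) each had 1 match before the second of their start sites and 0 before the first. The ANKRD1 match at -128 lies in bases annotated as untranslated region and is not printed above. The AMOTL2 and AJUBA matches lie in such bases too. LATS2 and AMOTL1 had 0 matches. The AP-1 motif TGANTCA, present in 6.57% of promoters, was found only before ANKRD1, at -195, and the CArG box bound by serum response factor, present in 1.16%, before none of them. A match is a description of the letters, not evidence of binding.

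**Figure D1:**
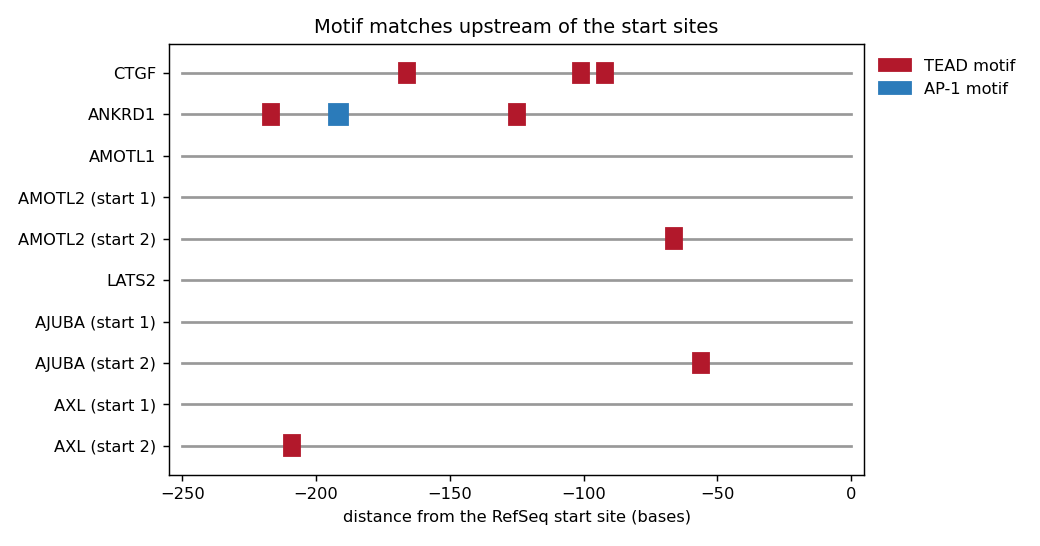
Matches to the TEAD motif (red) and the AP-1 motif (blue) in the 250 bases before each RefSeq start site, with distance from the start site in bases on the horizontal axis and 1 line per start site. CTGF holds 3 TEAD matches and ANKRD1 holds 2 with 1 AP-1 match.

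Levels per kilobase of merged exon length differed widely among the genes in CTRL. CTGF was highest at 18277 ± 651 normalised counts per kilobase (SD, n = 3), followed by CYR61 at 14689 ± 408. ANKRD1 (4191 ± 55.6) and CRIM1 (3576 ± 78.3) came next, then AXL (2694 ± 64.4) and AMOTL2 (1325 ± 73.2). AJUBA (684 ± 52.4), LATS2 (536 ± 8.62) and AMOTL1 (392 ± 15.5) were lower, and NOV was lowest at 22.5 ± 3.47. No neighbours in this order overlapped in CTRL. At 48H the ranges of CTGF (19934 to 21721) and CYR61 (18799 to 21548) overlapped, at 20737 ± 907 and 19996 ± 1408.

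CTGF and CYR61, secreted matricellular proteins that bind integrins and heparan sulphate, were lower than CTRL at 24H and higher than CTRL at 48H. CTGF had 43496, 43754 and 40998 normalised counts in CTRL, 29474, 27681 and 30577 at 24H, and 46625, 48082 and 50805 at 48H. The groups did not overlap: every 24H library lay below, and every 48H library above, all the controls. Against CTRL, the log2 fold change was -0.55 (SE 0.0579) at 24H and 0.18 (SE 0.0577) at 48H, and 48H against 24H was 0.73 (SE 0.058).

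CYR61 had 32987, 34710 and 33219 normalised counts in CTRL, 24501, 22349 and 22344 at 24H, and 44979, 43049 and 49345 at 48H. Its groups did not overlap either, and its highest 24H library lay well below its lowest control. Its log2 fold change against CTRL was -0.54 (SE 0.0612) at 24H and 0.44 (SE 0.0611) at 48H, a 1.36-fold higher level with an adjusted p of 0.000751 by edgeR's quasi-likelihood test. At 48H the level was 1.99-fold that at 24H, on the log2 scale 0.99 (SE 0.0616). Without TMAO 48H replicate 3, which had few epithelial marker counts, the log2 fold change at 48H was 0.39 (adjusted p = 0.00211 by edgeR), and without TMAO 24H replicate 1 the value at 24H was -0.59.

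For CTGF the rise at 48H did not pass the test over all genes (adjusted p = 0.0618 by edgeR, fold 1.13). DESeq2 gave it an adjusted p of 0.00254, removal of the ribosomal RNA genes 0.0452, the fit with no filter on low counts 0.0441, the older quasi-likelihood fit 0.0401, and the edgeR fit without TMAO 48H replicate 1 0.041. The other settings kept the adjusted p above the threshold, at 0.0593 to 0.137. These were RLE factors, at least 10 counts in every library, the replicate number as a block and only the 2 groups compared. Leaving out any library but TMAO 48H replicate 1 also kept it above the threshold, at up to 0.153. Without TMAO 24H replicate 1 the CTGF value at 24H was -0.55.

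The balance of the pair shifted at 48H. The ratio of CYR61 to CTGF counts within a library, which needs no scaling between libraries, was 0.758, 0.793 and 0.81 in CTRL, 0.831, 0.807 and 0.731 at 24H, and 0.965, 0.895 and 0.971 at 48H. The 24H range enclosed the control range, whereas the 48H libraries all lay above both other groups. The group means were 0.787 ± 0.0265 in CTRL, 0.79 ± 0.0525 at 24H and 0.944 ± 0.0421 at 48H (SD, n = 3). Together the pair made up 0.263% to 0.273% of the counts outside ribosomal RNA genes in CTRL, 0.177% to 0.188% at 24H and 0.323% to 0.354% at 48H.

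NOV, the other CCN gene of the 10 and a matricellular protein of the vessel wall, had the lowest counts of the 10, with 44 to 92 raw counts. It had 61.3, 46.8 and 62.5 normalised counts in CTRL, 49.3, 80.7 and 82.4 at 24H, and 62.9, 58.1 and 65.6 at 48H. The groups overlapped in every comparison. Its spread within groups was 0.277 (SD, log2), against 0.03 to 0.0765 for the other 9 genes, and its log2 fold change at 48H was 0.13 (SE 0.21, adjusted p = 0.756 by edgeR). The log2 fold change of CTGF at 48H (0.18) was smaller than this SE, and whether such a change could be detected for NOV was not tested.

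The RT-qPCR primers that the study used for CTGF are shown because they define the part of the transcript that assay measures.
Forward: TTAAGAAGGGCAAAAAGTGC
Reverse: CATACTCCACAGAATTTAGCTC
On GENCODE transcript ENST00000367976.3 (chromosome 6, minus strand, GRCh38), the forward primer spans the junction of exons 4 and 5, between 131949546 and 131949953. The reverse primer lies in exon 5, the last of 5, at 131949454 to 131949475. Both lie in coding sequence, and the product is 112 bases long. CTGF shares at least 195 bases with AL133346.1 on the opposite strand, and reads there cannot be told apart if the counting ignored strand. AMOTL1 (at least 496), CRIM1 (177) and AXL (67) also overlap a gene on the opposite strand. AMOTL2 (at least 187) and AJUBA (50) overlap a gene on the same strand.

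**Figure D2:**
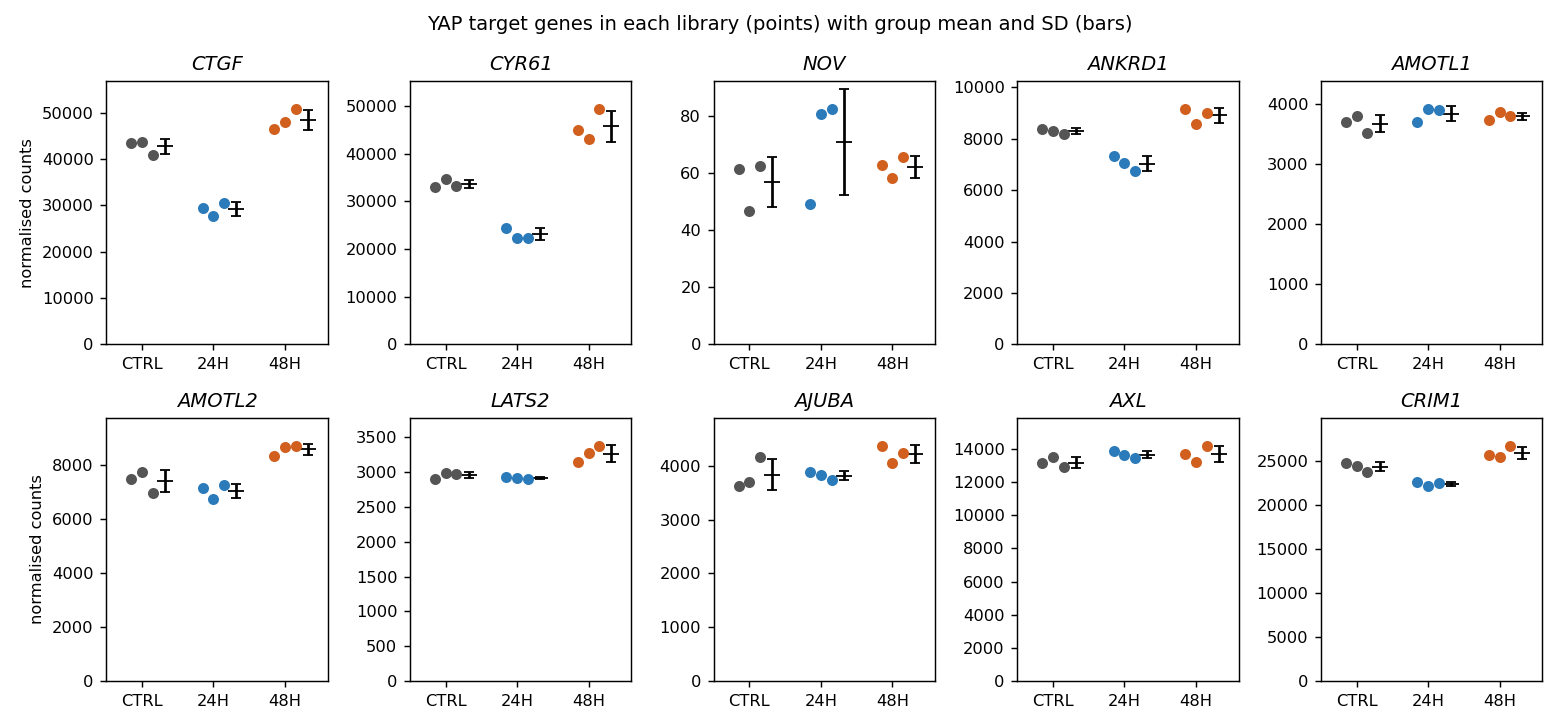
Normalised counts of the 10 genes, 1 panel per gene with its own axis from 0, where points are libraries in the groups CTRL, 24H and 48H and bars give the group mean and SD. CTGF and CYR61 fall below CTRL at 24H and above it at 48H without overlap, while the NOV, AMOTL1 and AXL groups overlap.

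ANKRD1 and CRIM1 were placed like CTGF and CYR61, with smaller differences. ANKRD1, a cardiac and endothelial ankyrin repeat protein that shuttles to the nucleus, had 8391, 8318 and 8175 normalised counts in CTRL, 7319, 7043 and 6736 at 24H, and 9152, 8565 and 9008 at 48H. Every 24H library lay below all controls and every 48H library above them. The log2 fold change was -0.24 (SE 0.0424) at 24H and 0.10 (SE 0.0424) at 48H, where the adjusted p was 0.143 by edgeR. Between 48H and 24H the difference was 0.34 (SE 0.0424).

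CRIM1, a transmembrane protein that binds bone morphogenetic proteins, had 24862, 24491 and 23810 normalised counts in CTRL, 22610, 22202 and 22569 at 24H, and 25675, 25441 and 26752 at 48H. Its groups did not overlap either. Its log2 fold change was -0.12 (SE 0.0436) at 24H and 0.09 (SE 0.0436) at 48H, where the adjusted p was 0.213 by edgeR. In the comparison of 48H with 24H it was 0.21 (SE 0.0436).

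Of the inhibitors that feed back on YAP, AMOTL2 and LATS2 rose at 48H and AMOTL1 did not pass the test. AMOTL2, an angiomotin relative that holds YAP at junctions, had 7482, 7726 and 6931 normalised counts in CTRL, 7127, 6741 and 7228 at 24H, and 8334, 8649 and 8689 at 48H. Its 48H libraries lay above all others, and its 24H libraries overlapped the controls. The log2 fold change at 48H was 0.21 (SE 0.0467, adjusted p = 0.0117 by edgeR), and without TMAO 48H replicate 2 it was 0.21 with an adjusted p of 0.0538.

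LATS2, the kinase that phosphorylates YAP and TAZ, had 2902, 2990 and 2977 normalised counts in CTRL, 2930, 2922 and 2904 at 24H, and 3142, 3279 and 3376 at 48H. Its 48H libraries also lay above all others, and CTRL and 24H overlapped. At 48H its log2 fold change was 0.14 (SE 0.0391, adjusted p = 0.0342 by edgeR). That call was lost in 8 of the 9 fits that left out 1 library, all but the one without TMAO 48H replicate 1, with adjusted p up to 0.107 and log2 fold changes of 0.12 to 0.17. It was also lost with only the 2 groups compared (adjusted p = 0.1) and with no filter on low counts (0.0658).

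AMOTL1, the other angiomotin relative, had 3701, 3787 and 3505 normalised counts in CTRL, 3694, 3907 and 3901 at 24H, and 3734, 3855 and 3787 at 48H. The groups overlapped in every comparison, and the log2 fold change at 48H was 0.05 (SE 0.0418, adjusted p = 0.501 by edgeR). AJUBA, a LIM protein that binds and restrains LATS kinases, had 3632, 3700 and 4171 normalised counts in CTRL, 3886, 3832 and 3731 at 24H, and 4369, 4048 and 4246 at 48H. Its 48H libraries lay above those at 24H and overlapped CTRL through CTRL replicate 3. The log2 fold change at 48H was 0.14 (SE 0.0523, adjusted p = 0.111 by edgeR), and 0.20 with an adjusted p of 0.0177 without that control.

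AXL, a receptor tyrosine kinase for GAS6, had 13138, 13522 and 12896 normalised counts in CTRL, 13870, 13662 and 13441 at 24H, and 13718, 13232 and 14187 at 48H. The groups overlapped in every comparison, with a log2 fold change of 0.06 at 48H (SE 0.0414, adjusted p = 0.425 by edgeR). For the 6 genes whose 24H and CTRL libraries overlapped, the log2 fold changes at 24H were -0.07 for AMOTL2, -0.02 for LATS2, -0.0067 for AJUBA, 0.05 for AXL, 0.07 for AMOTL1 and 0.32 (SE 0.208) for NOV.

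**Figure D3:**
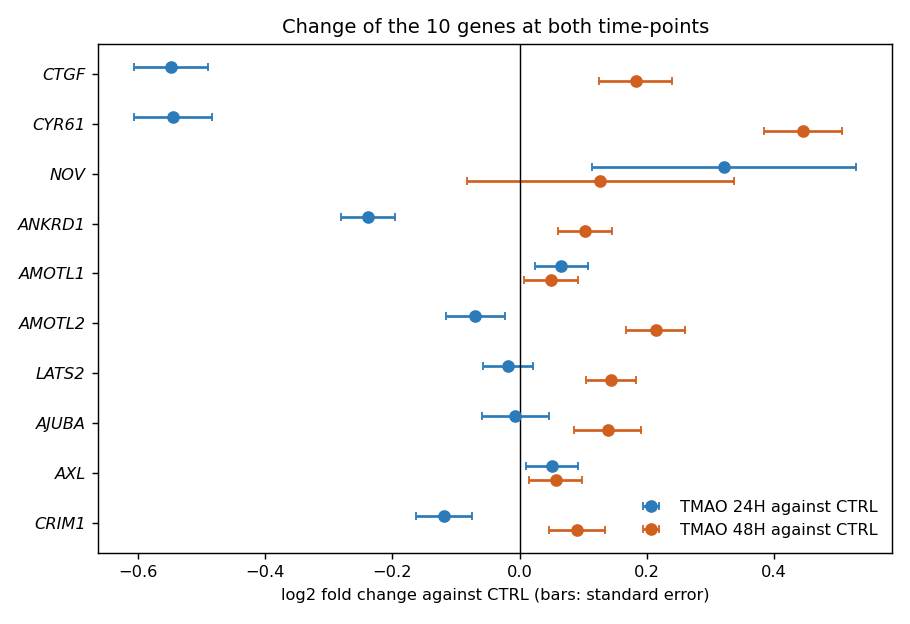
Log2 fold change of each of the 10 genes against CTRL (horizontal axis) at 24H (blue) and 48H (orange), where points are estimates from the fit of all 9 libraries and bars are standard errors. CTGF, CYR61, ANKRD1 and CRIM1 lie on opposite sides of 0 at the time-points, as do AMOTL2, LATS2 and AJUBA with smaller 24H estimates. All 10 estimates at 48H are above 0, from 0.05 to 0.44.

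Taking the 10 genes as a list, 2 were called lower at 24H (adjusted p under 0.05), where 0.095% of all tested genes were called, all of them lower. Without TMAO 24H replicate 2 that count was 0. At 48H, 3 of 10 (CYR61, AMOTL2 and LATS2) were called higher and 0 lower, where 10.4% of all tested genes were called, 5.14% higher and 5.29% lower. None of the 10 also reached a 1.4-fold change at 48H, as 1.8% of all tested genes did, and without TMAO 48H replicate 2 only CYR61 was called. Between 48H and 24H, 6 of 10 were called higher, where 7.53% of all tested genes were called, 3.77% in each direction, and 2 of the 6 (CTGF and CYR61) also reached a 1.4-fold change, as 1.71% of all tested genes did. Because the 24H counts led to the choice of genes, nothing is read from the counts at 24H or between 48H and 24H.

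Libraries did not overlap for 4 of the 10 genes at 24H, all lower, against 7.52% of all tested genes that were lower without overlap. At 48H this held for 6 of 10, all higher, against 14.7% of all tested genes, and between 48H and 24H for 7, all higher, against 14.7%. The counts that use the 24H libraries again restate the choice of genes, and nothing is read from them. All 10 estimates at 48H were above 0, against 51% of all tested genes. The median log2 fold change of the 10 was -0.04 at 24H and 0.13 at 48H, while that of all tested genes was -0.00042 and 0.004. The 48H estimates share their controls with the 24H estimates, and the genes were chosen with these results known.

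The coactivators themselves were not called in any comparison. YAP1 had 5155, 5304 and 5348 normalised counts in CTRL, 5018, 5354 and 5336 at 24H, and 5315, 5418 and 5168 at 48H, and its groups overlapped. WWTR1, which encodes TAZ, had 6566, 6414 and 5853 in CTRL, 6512, 6363 and 6525 at 24H, and 6005, 6220 and 6494 at 48H, again with overlap. TEAD1 had a log2 fold change of 0.15 at 48H with an adjusted p of 0.109 by edgeR, which fell to 0.0497 without CTRL replicate 1 and to 0.0216 without TMAO 48H replicate 1. TEAD2, TEAD3 and TEAD4 had values of -0.02, -0.05 and 0.03 at 48H. Of the 8 tested genes among YAP, TAZ, TEAD and VGLL (cofactors that compete for TEAD), edgeR called 0 in each comparison, and at an unadjusted p under 0.05 it found 0 at 24H, 1 at 48H (TEAD1) and 1 between 48H and 24H. DESeq2 called none of YAP1, WWTR1 and TEAD1 to TEAD4 either.

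The remaining CCN genes were scarce. WISP2 had 5 to 15 raw counts and a log2 fold change of -0.50 at 48H (adjusted p = 0.541 by edgeR), and WISP1 and WISP3 did not pass the filter on low counts.

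Across 78 other genes of the pathway and its partners, 72 were tested. At 24H, edgeR called 0 of them, with 10 at an unadjusted p under 0.05 (1067 of all 14740 tested genes), and DESeq2 called 2 (55 of all tested genes). At 48H, 14 were called, 8 higher and 6 lower, against 10.4% of all tested genes. Between 48H and 24H, 15 were called, 7 higher and 8 lower, against 7.53%.

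Among 14 tested genes of a YAP/TAZ target signature outside the 10, 1 rose and 2 fell at 48H, where 5.14% of all tested genes rose and 5.29% fell, and their median log2 fold change was -0.07. GADD45A, a stress-response gene that slows the cell cycle, rose by 0.23 (SE 0.0448, adjusted p = 0.00685 by edgeR), from 1376, 1399 and 1418 normalised counts in CTRL to 1688, 1653 and 1563. CCDC80, a matrix protein, fell by 0.36 on the log2 scale (SE 0.0617, adjusted p = 0.00327 by edgeR). IGFBP3, which binds insulin-like growth factors, fell by 0.31 (SE 0.0678, adjusted p = 0.0117 by edgeR, or 0.0606 without CTRL replicate 2).

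TGFB2, a ligand of the transforming growth factor beta family, had a log2 fold change of 0.35 between 48H and 24H (SE 0.0533, adjusted p = 0.00114 by edgeR). It had 3029, 3029 and 2718 normalised counts in CTRL, 2456, 2423 and 2428 at 24H, and 2898, 3139 and 3276 at 48H. Its 24H libraries lay below all the others, although its 24H comparison with CTRL did not pass the test (adjusted p = 0.12 by edgeR). NT5E, the ectoenzyme that makes adenosine, fell by 0.24 between 24H and 48H (adjusted p = 0.012 by edgeR), a call lost without TMAO 24H replicate 3 (0.0613) or TMAO 48H replicate 2 (0.0621).

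Of 20 tested Hippo kinases and scaffolds, 4 rose and 1 fell at 48H, against 5.14% and 5.29% of all tested genes, with a median log2 fold change of 0.05. WWC1, the scaffold KIBRA, rose by 0.35 (SE 0.0791, adjusted p = 0.0135 by edgeR), a call just lost without CTRL replicate 2 (0.0501) or TMAO 48H replicate 2 (0.0503). TAOK1, a kinase that activates the Hippo kinases, rose by 0.26 (SE 0.0458, adjusted p = 0.00403 by edgeR). MOB1A, a LATS cofactor, rose by 0.21 (adjusted p = 0.0106, or 0.0597 without TMAO 48H replicate 2).

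STK3, the Hippo kinase MST2, rose by 0.22 (adjusted p = 0.0257 by edgeR), but its call was lost in 5 of 9 fits that left out a library, those without any control, TMAO 48H replicate 1 or replicate 2, at up to 0.077, and with only the 2 groups compared (0.0696). FRMD6, a FERM protein upstream of the kinases, was lower at 48H than in CTRL (adjusted p = 0.0133 by edgeR) and fell by 0.22 between 24H and 48H (adjusted p = 0.00755 by edgeR). WWC2, a relative of WWC1, had 0.18 between 48H and 24H, and WWC1 had 0.32. Both were called (adjusted p = 0.0374 and 0.025 by edgeR), and each lost its call in 5 of 9 fits that left out a library, at up to 0.167 and 0.112. For both these were the fits without any 24H library or TMAO 48H replicate 2, with CTRL replicate 1 the fifth for WWC2 and TMAO 48H replicate 1 the fifth for WWC1. WWC2 also lost its call with no filter on low counts (0.0592).

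Serum response factor, which works with the actin-sensing MRTF cofactors, is another known regulator of CTGF and CYR61. Of 17 tested targets and cofactors of this pathway, 3 rose and 1 fell at 48H, against 5.14% and 5.29% of all tested genes. ACTA2, smooth muscle actin, rose by 0.74 (SE 0.118, adjusted p = 0.00194 by edgeR), from 123, 136 and 120 normalised counts in CTRL to 186, 224 and 222. TAGLN, an actin-binding protein, rose by 0.33 (SE 0.0606, adjusted p = 0.00428 by edgeR).

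MYL9, a myosin light chain, rose by 0.30 (SE 0.0474, adjusted p = 0.00176 by edgeR), and FHL2, a LIM cofactor, fell by 0.25 (SE 0.0477, adjusted p = 0.00541 by edgeR). The 4 smooth muscle markers, of which ACTA2 is one, summed to 5.44 to 6.41 CPM in CTRL and 8 to 9.61 CPM at 48H, while MYH11 and DES stayed under 1 CPM in every library. The most abundant members of the list, ACTB and ACTG1, had log2 fold changes of -0.13 and -0.11 at 48H and did not pass the test (adjusted p = 0.346 and 0.349 by edgeR).

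Among 12 receptors and ligands that work with CCN proteins and AXL, 2 fell and 0 rose at 48H, against 5.29% and 5.14% of all tested genes. ITGB5, the beta subunit of a CYR61- and CTGF-binding integrin, fell by 0.39 (SE 0.0408, adjusted p = 9.48e-05 by edgeR), from 7645, 7847 and 7332 normalised counts in CTRL to 5910, 5635 and 5894. ITGA5, of the fibronectin receptor, fell by 0.31 (SE 0.0621, adjusted p = 0.0079 by edgeR). ITGA6, a laminin receptor subunit, and LRP1, an endocytic receptor that binds CTGF, were called lower at 48H than at 24H (log2 fold changes -0.19 and -0.25), as was ITGA5 (-0.22). Those 3 calls were each lost in 6 of 9 fits that left out a library, at up to 0.148, 0.159 and 0.166, namely those without CTRL replicate 2, any 24H library, TMAO 48H replicate 1 and, for ITGA6, TMAO 48H replicate 3 or, for LRP1 and ITGA5, TMAO 48H replicate 2. The AXL ligand GAS6 and the receptors TYRO3 and MERTK were not called in any comparison.

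**Figure D4:**
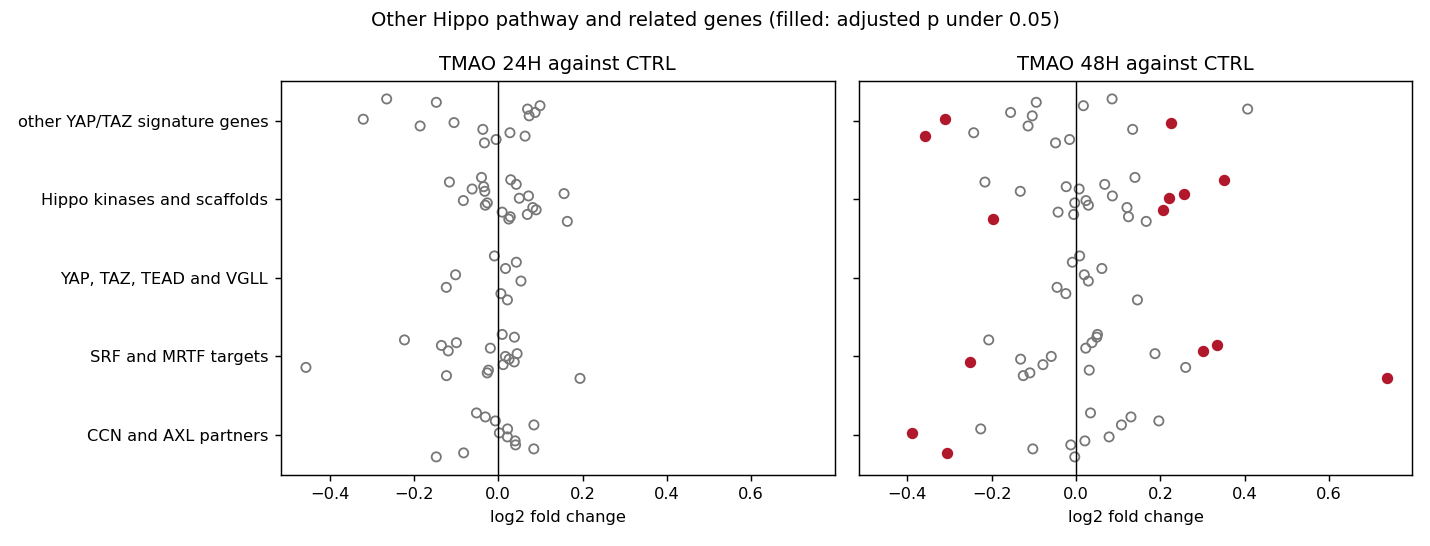
Log2 fold changes of the tested genes of 5 lists of Hippo pathway and related genes against CTRL at 24H (left) and 48H (right), where each circle is a gene and filled circles have an adjusted p under 0.05. At 24H 0 genes are filled, and at 48H 14 are, with ACTA2 at 0.74 and ITGB5 at -0.39 the farthest out on each side.

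Genes whose pattern lay near that of CTGF over the 9 libraries were found by the root mean square difference of log2 normalised counts, each gene set to its own control mean. Among 12328 genes ranked, those near CTGF included VWF (von Willebrand factor, 0.11), HES1 (a Notch target, 0.111), EDN1 (endothelin, 0.124) and BDNF (0.124). The median over all ranked genes was 0.355. CYR61 ranked 15th, at 0.162.

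VWF had 3378 ± 279 normalised counts in CTRL, 2531 ± 164 at 24H and 3598 ± 381 at 48H (SD, n = 3). Nearest to CYR61 were SPRY2 (a feedback inhibitor of receptor tyrosine kinase signalling, 0.0589), GFRA1 (0.128), NR4A1 (an immediate-early nuclear receptor, 0.128), DUSP1 (a MAP kinase phosphatase, 0.129) and NEGR1 (0.132), with CTGF at rank 8. SPRY2 had 613 ± 35.9 normalised counts in CTRL, 436 ± 20.5 at 24H and 857 ± 56.9 at 48H (SD, n = 3).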

How the data were processed

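RNA of HMEC-1, either untreated or given 50 µM TMAO over 24H or 48H, was sequenced as paired reads. The authors processed the reads with the nf-core RNAseq pipeline. Trim Galore is named in the submitters' processing notes. The quantifier, build and annotation are not given in the sources used here. The authors deposited estimated counts (expected counts) per gene symbol, without normalisation, for 9 libraries grouped by their labels. No sequence is given for CYR61, CRIM1 and NOV, and RT-qPCR values were not analysed here.

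The estimated counts were rounded. In R 4.3.3, edgeR 4.0.16 (filterByExpr, TMM, glmQLFit with legacy = FALSE) fitted all 9 libraries over 14740 genes, and p-values were adjusted by the Benjamini-Hochberg method. A gene was called at an adjusted p under 0.05, and a second call added a 1.4-fold change. Standard errors came from the F statistic. Normalised counts are counts divided by the effective library size and multiplied by its mean. An exact permutation test of 3 against 3 cannot go below p = 0.1, so edgeR's p-values are given. The biological coefficient of variation was 0.0744.

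The members and lists were chosen with earlier results of these data known. Named genes were the 10 members, YAP1, WWTR1 and TEAD1 to TEAD4, up to 4 called genes of each list per comparison with the largest log2 fold changes (mean normalised count at least 50), and the 5 nearest patterns to CTGF and to CYR61, of which 1 is not reported here. Other genes named in the pathway paragraphs (GAS6, TYRO3, MERTK, ACTB, ACTG1 and the WISP genes) were chosen after their values were seen. Exon lengths came from GENCODE release 29 and promoters from RefSeq. On simulated data for 48H against CTRL, 149 of 197 changed genes were recovered with 7 false calls among 14593 genes. Recovery by size of change is not given here. Changes under 1.4-fold, the size seen for all 10 members at 48H, were not simulated. Alternatives were DESeq2 1.42.0, RLE factors, other filters on low counts, only the 2 groups compared, the older fit, the replicate number as a block, removal of ribosomal RNA genes and leaving out each library.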

Additional observations from a re-analysis of the deposited data

Results flagged for a closer look

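Of the 10 genes, 4 lay on opposite sides of the controls at the time-points, with every 24H library below and every 48H library above all controls. The 48H effect minus the 24H effect, on the log2 scale, was 0.73 for CTGF, 0.99 for CYR61, 0.34 for ANKRD1 and 0.21 for CRIM1. These 4 differences are a description with no p-value, and a test independent of the choice of genes was not made, because the 24H libraries led to that choice.

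Among the other pathway genes, edgeR's test of 48H against 24H called 7 genes higher at 48H (adjusted p under 0.05). Both effects use the same controls, so this test compares only the treated groups and includes any effect of time in culture. The difference was 0.54 for ACTA2, 0.47 for TAGLN, 0.42 for MYL9, 0.35 for TGFB2, 0.33 for GADD45A, 0.32 for WWC1 and 0.18 for WWC2. It was lower at 48H for 8 genes, with -0.42 for CCDC80, -0.39 for ITGB5, -0.29 for FHL2, -0.25 for LRP1, -0.24 for NT5E, -0.22 for ITGA5, -0.22 for FRMD6 and -0.19 for ITGA6. The call for ACTA2 was lost without TMAO 24H replicate 3 (adjusted p = 0.0648 by edgeR) or without TMAO 48H replicate 2 (0.0637).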

How the results depend on the processing

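Of the 10 genes, 2 were called at 24H, with a range of 0 to 3 over the fits that left out 1 library (0 without TMAO 24H replicate 2). At 48H 3 were called (1 to 4, with 1 without TMAO 48H replicate 2) and between 48H and 24H 6 (4 to 6). With the 1.4-fold criterion added, the 10 genes gave 0 at 48H and 2 between 48H and 24H. Of the other pathway genes, 0 were called at 24H (0 to 1, and 2 by DESeq2), 14 at 48H (10 to 18, and 1 with the 1.4-fold criterion) and 15 between 48H and 24H (8 to 17, and 1 with the 1.4-fold criterion, with 8 without TMAO 24H replicate 3 and 9 without TMAO 48H replicate 2). Same-numbered libraries did not deviate together (r of -0.245 to 0.0869 over 9 pairs, against -0.136 to 0.253 over 18 pairs of different numbers). Whether they share a culture or batch is not stated, and values from so few libraries per group cannot decide it. With the replicate number as a block, 0 of the 10 genes were called at 24H, 2 at 48H and 5 between 48H and 24H, and of the other pathway genes 0, 14 and 10. The block ended the call of LATS2 at 48H (adjusted p = 0.0732 by edgeR) and, between 48H and 24H, those of WWC1 (0.0624), WWC2 (0.079), ITGA5 (0.11), LRP1 (0.107) and ITGA6 (0.0829). Over all tested genes the calls at 24H numbered 14 by edgeR, 55 by DESeq2, 1 with the block and 0 without TMAO 24H replicate 2, and at 48H 1537, with 700 without TMAO 48H replicate 2 and 948 with the block.

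Leaving out 1 library turned the sign of small log2 fold changes near 0. YAP1 ranged from -0.0254 to 0.0215 at 24H, -0.00737 to 0.0269 at 48H and -0.0153 to 0.0361 between them. WWTR1 ranged from -0.00238 to 0.0762 at 24H and -0.0618 to 0.0249 at 48H, and TEAD1 from -0.00594 to 0.0763 at 24H. TEAD2 ranged from -0.0158 to 0.0479, -0.0595 to 0.0251 and -0.0657 to 0.0189 in the comparisons in that order, and TEAD4 from -0.0314 to 0.0982 at 48H and -0.0524 to 0.00411 between them. The cause of these changes was not tested.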
